A study of Mus musculus with 15 samples.

Results

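Messenger RNA levels were compared between Artemis-deficient and Rag-deficient mouse Abelson pre-B cells, using 6 of the 15 RNA-seq libraries of the study. The 3 Art libraries came from cells labelled Art -/-, with no hairpin RNA and no named agent. The 3 Rag_SPIC_noDOX libraries came from cells labelled Rag -/- that carry a doxycycline-inducible SPIC construct and received no doxycycline. Abelson cells are pre-B cells transformed by the v-Abl kinase, and all cells of the study had been in imatinib, an inhibitor of that kinase, for 48 h. A further 2 groups of 3 libraries each served to look at the same pair of lines once more. These were Art_shBCLAF1, from Art -/- cells labelled with a hairpin RNA against BCLAF1, and Rag_SPIC_DOX_shBCLAF1, from Rag -/- cells with the SPIC construct, doxycycline and the same hairpin label. The labels give passage 10 to 15 for all lines, and do not say which Rag gene was deleted, whether a line is 1 clone, or whether replicates were grown apart. P-values therefore measure the spread between these libraries, which may be technical, and the genotype cannot be told apart from the SPIC construct or from other differences between the lines.

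V(D)J recombination assembles antigen receptor genes. The RAG1-RAG2 recombinase cuts the DNA and leaves coding ends that are sealed as hairpins, and Artemis, the nuclease encoded by Dclre1c, opens these hairpins so that end joining can proceed. Inhibition of v-Abl stops the division of transformed pre-B cells and induces Rag expression and light-chain rearrangement. In this state Artemis-deficient cells make RAG breaks that stay unrepaired, while Rag-deficient cells make none. Such breaks are sensed by the kinase ATM, which in pre-B cells acts on NF-kB, p53 and other factors. The study asked how RAG breaks act on PU.1, an ETS-family factor that drives many B-lineage genes, through the related factor SPIC and its partner BCLAF1.

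Values are log2 CPM, the reads of a gene scaled to a normalised size of its library, for 11551 protein-coding genes, so 1 unit is a 2-fold difference. A gene was called changed when its adjusted p in limma was below 0.05 (Benjamini-Hochberg over all 11551 genes). These genes had passed the submitters' own threshold in some comparison, Art against Rag_SPIC_noDOX among them, so adjusted p-values may be too small. Reads recovered from the deposited values summed, over these genes, to 25.3, 16.6 and 6.37 M reads (mega reads) in Art replicates 1 to 3, and to 17.3, 17.6 and 17.1 M in Rag_SPIC_noDOX. Art replicate 3 stood apart from its group as well as being the shallowest. It differed from Art replicates 1 and 2 by a root-mean-square of 0.942 and 0.95 log2 units, whereas the other pairs within either group differed by 0.267 to 0.295. Its departure followed the GC content of the transcripts, with a Spearman correlation of 0.63 across genes (a description; genes are not independent replicates). In the tenth of genes lowest in GC its level was a median of 1.17 log2 units below that of its partners (a median of -1.17), and in the tenth highest in GC 0.65 above it. Counts are therefore given for all 6 libraries and again without Art replicate 3, and so are the values of some genes.

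**Figure D1:**
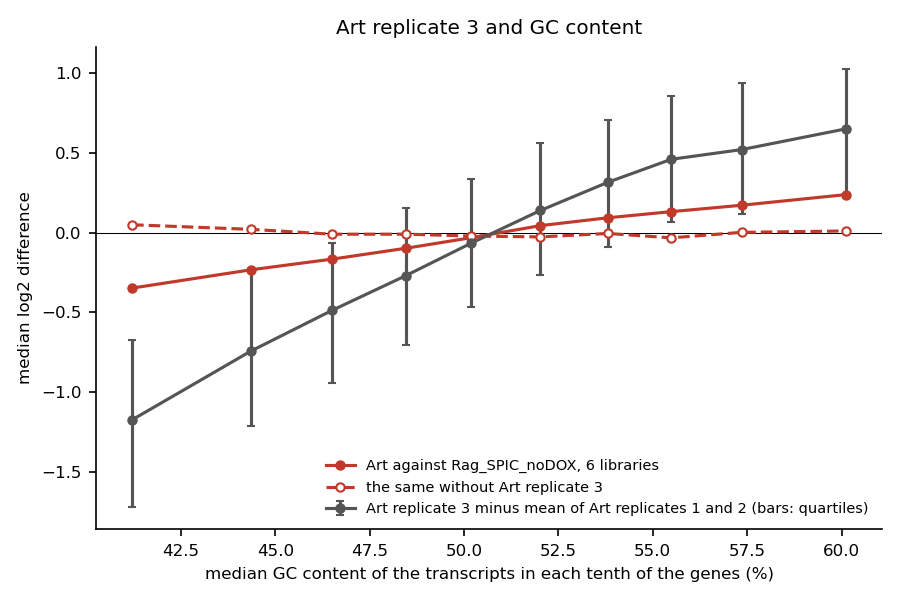
Median log2 differences in 10 equal groups of genes ordered by transcript GC content (horizontal axis, %). The grey line (bars: quartiles over genes) is Art replicate 3 minus the mean of Art replicates 1 and 2 and climbs from -1.17 to 0.65; the solid red line is the 6-library difference between Art and Rag_SPIC_noDOX, and the dashed red line, without Art replicate 3, stays near 0.

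Markers placed both groups in the B lineage. All 12 pre-B markers looked for were measured, and their summed level was 11851 to 13422 CPM in Art and 9155 to 9506 CPM in Rag_SPIC_noDOX. Of the 10 T and NK markers only Lck, Tcf7 and Gata3 were among the genes analysed here, and Cd3e, Cd4 and Cd8a were not; the T and NK sum was 123 to 129 CPM in Art and 60 to 61.8 CPM in Rag_SPIC_noDOX. Myeloid markers summed to 696 to 928 CPM in Art and 335 to 346 CPM in Rag_SPIC_noDOX, most of it Itgam, while Mpo, Elane and Csf3r were not among the genes analysed here. Csf1r, Fcgr3 and Tyrobp were lower in Art, the opposite direction to Itgam. Only genes called in some comparison of the study were available, so a missing marker may be expressed but unchanged. The part of other cell types in the results below was not tested.

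For the genes named in the genotypes, gene-level values sum over all exons and cannot show a deleted part. Dclre1c stood at 5.12, 4.99 and 2.87 log2 CPM in Art and at 4.65, 4.69 and 4.72 in Rag_SPIC_noDOX. Rag1 stood at 11.55, 11.55 and 10.36 in Art and at 10.05, 10.17 and 10.06 in Rag_SPIC_noDOX. Rag2 stood at 6.81, 6.68 and 5.36 in Art and at 5.82, 6.10 and 6.06 in Rag_SPIC_noDOX. Rag1 was thus higher in every Art library, whereas for Dclre1c and Rag2 Art replicate 3 lay below all Rag_SPIC_noDOX libraries and the other Art libraries above them. Spic was near the detection limit in both groups, at 46, 21 and 6 reads in Art and 32, 20 and 47 reads in Rag_SPIC_noDOX. With all 6 libraries none of these genes passed the test (Rag1 log2 fold change 1.06, adjusted p = 0.137). Without Art replicate 3, Rag1 was higher by 1.46 ± 0.07 (SE), Rag2 by 0.75 ± 0.08 and Dclre1c by 0.37 ± 0.08, with adjusted p of 2.47e-11, 2.57e-07 and 0.000843.

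With all 6 libraries, 298 genes (2.58% of those tested) were higher and 296 (2.56%) were lower in Art than in Rag_SPIC_noDOX. Without Art replicate 3 the counts were 2679 higher (23.2%) and 2794 lower (24.2%), and all 594 genes of the 6-library test were among them with the same direction. Leaving out instead Art replicate 1 or 2 or Rag_SPIC_noDOX replicate 1 or 3 left 0 genes past the threshold, and leaving out Rag_SPIC_noDOX replicate 2 left 1. Separate groups were common: all Art libraries lay above all Rag_SPIC_noDOX libraries for 2131 genes (18.4%) and below them for 2244 (19.4%), 37.9% of the genes together. The 6-library calls are the ones used below, with counts and selected values without Art replicate 3 beside them. Counts per gene list are to be read against the shares of all genes called. These were 2.58% higher and 2.56% lower with 6 libraries, and 23.2% and 24.2% without Art replicate 3. A list near these shares does not stand out.

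The gene with the widest gap between the groups was Pcdh17, which encodes a protocadherin, a cell adhesion protein. It stood at 5.76, 5.79 and 5.57 log2 CPM in Art and at 2.07, 2.49 and 1.90 in Rag_SPIC_noDOX, an 11.7-fold difference (log2 fold change 3.55 ± 0.19, adjusted p = 0.00983). The lowest Art library exceeded the highest Rag_SPIC_noDOX library by 3.08 log2 units, although separate groups were a condition for choosing these genes. Kcns1, a modulatory potassium channel subunit, stood at 4.38, 4.35 and 5.22 in Art and at 1.79, 2.06 and 1.98 in Rag_SPIC_noDOX. Prss12, a secreted serine protease, stood at 4.90, 4.93 and 5.86 in Art and at 2.53, 2.63 and 2.42 in Rag_SPIC_noDOX. Both were 6.52-fold higher in Art, and in both Art replicate 3 lay above its partners. The log2 fold change of each was 2.70 with that library, and without it 2.42 for Kcns1 and 2.39 for Prss12. The other 9 genes with the widest gaps upward were Serpina3g, Arap3, Arrdc5, Uaca, Lrtm2, Wnt10a, Jchain, Fut4 and Pacsin1. Arap3, a GTPase-activating protein, varied least within Art, at 3.99, 4.03 and 3.99 against 1.86, 1.67 and 2.02 in Rag_SPIC_noDOX. Jchain, the joining chain of secreted antibodies, stood at 3.71, 3.70 and 4.18 in Art and at 1.86, 1.74 and 1.88 in Rag_SPIC_noDOX. The remaining plasma cell markers Prdm1, Xbp1, Sdc1 and Irf4 did not pass with 6 libraries. Prdm1 was higher by 0.30 and Xbp1 by 0.31 without Art replicate 3 (adjusted p = 0.000433 and 0.000382), while Sdc1 and Irf4 again did not pass.

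Among genes lower in Art, the widest gap was that of Ryr3, a calcium release channel of the endoplasmic reticulum. It stood at 2.27, 1.83 and 0.55 log2 CPM in Art and at 4.95, 4.72 and 5.06 in Rag_SPIC_noDOX, a log2 fold change of -3.36 ± 0.44 (adjusted p = 0.0167). Art replicate 3, with 8 reads of Ryr3, was the lowest, and the log2 fold change without it was -2.86 ± 0.13. Ccl22, a chemokine that binds CCR4, stood at 0.54, 0.82 and 1.32 in Art and at 3.64, 3.76 and 3.55 in Rag_SPIC_noDOX (-2.76 ± 0.23). Sdk1, an adhesion molecule of the immunoglobulin superfamily, was the steadiest of the 12, at 2.40, 2.36 and 2.24 in Art and 4.57, 4.47 and 4.36 in Rag_SPIC_noDOX (-2.13 ± 0.13). Mpeg1, the perforin-like protein of phagocytes and B cells, stood at 3.66, 3.52 and 3.17 in Art and at 5.40, 5.55 and 5.45 in Rag_SPIC_noDOX (-2.02 ± 0.16). The rest were Gm10800, Uchl1, Vldlr, Lhfpl4, Cav2, Cacna1h, Rgs11 and Bend4, with log2 fold changes between -3.21 and -2.07. Several of them rested on few reads in Art replicate 3, from 4 for Lhfpl4 to 9 for Gm10800 and Vldlr. The log2 fold change of Gm10800 was -3.21 with that library and -2.40 without it.

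**Figure D2:**
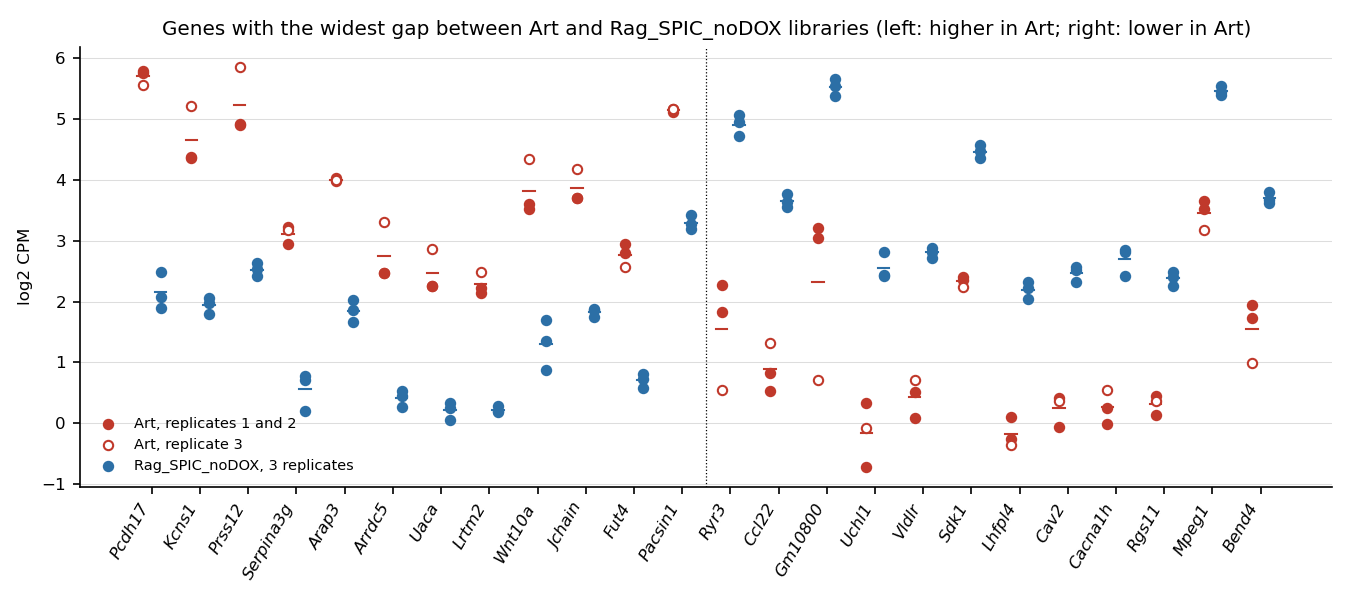
Levels (vertical axis, log2 CPM) of the 12 genes higher and the 12 genes lower in Art with the widest gap between the nearest libraries of the groups, by library; filled red points are Art replicates 1 and 2, open red points Art replicate 3, blue points Rag_SPIC_noDOX, and bars are group means of 3 libraries. No gene's groups overlap, which the choice of these genes fixes; Pcdh17 has the widest gap upward and Ryr3 downward.

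Among 25 genes of V(D)J recombination and end joining, 1 was called with 6 libraries, and it was higher in Art. This was Lig4, the ligase that seals the joined ends, at 6.83, 6.80 and 6.44 log2 CPM in Art and 5.73, 5.88 and 5.78 in Rag_SPIC_noDOX (0.89 ± 0.14, adjusted p = 0.0258). All 3 Art libraries lay above all 3 Rag_SPIC_noDOX libraries. Without Art replicate 3, 10 were higher and 7 lower, against 23.2% and 24.2% of all genes. The higher ones included Rag1, Rag2, Dntt (terminal transferase), Prkdc (the DNA-dependent protein kinase) and Atm. H2afx, the histone variant phosphorylated around breaks, was among the lower ones, at 8.09, 7.98 and 8.74 in Art and 9.21, 9.27 and 9.17 in Rag_SPIC_noDOX. Its groups did not overlap either, although with 6 libraries its adjusted p was 0.0644. The median of the list changed sign with the library set, -0.20 with all 6 and 0.07 without Art replicate 3, and Art replicate 3 sat a median of 0.74 log2 units below its partners over these genes (-0.74).

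Genes reported to respond to RAG breaks through ATM were called in both directions. Of 21 measured, 2 were higher and 3 lower in Art with 6 libraries, and 10 were higher and 5 lower without Art replicate 3. The shares of all genes were 2.58% higher and 2.56% lower with 6 libraries, and 23.2% and 24.2% without Art replicate 3. The 5 lower are thus near the share of all genes. Cd40, the receptor for T-cell help, stood at 4.09, 4.24 and 5.21 log2 CPM in Art and 2.82, 2.96 and 2.98 in Rag_SPIC_noDOX (1.59 ± 0.30). Ctla4, an inhibitory receptor best known on T cells, stood at 2.65, 2.90 and 1.95 in Art and 0.91, 0.93 and 1.22 in Rag_SPIC_noDOX (1.48 ± 0.28). Neither gene's groups overlapped, but Art replicate 3 was the highest Art library for Cd40 and the lowest for Ctla4. In the other direction, Gadd45a, a stress-induced growth arrest gene, stood at 4.39, 4.27 and 5.14 in Art and 6.09, 5.96 and 6.08 in Rag_SPIC_noDOX (-1.44 ± 0.24). The cytokine gene Tnf was also lower (-1.44 ± 0.26). The costimulatory ligand gene Cd86 was lower (-2.96 ± 0.33) with 5, 2 and 1 reads in Art and 23, 27 and 33 reads in Rag_SPIC_noDOX. Further members passed only without Art replicate 3. Those higher in Art included Cd69, an early activation marker (0.79), the kinase gene Pim2 (0.64), the lymphotoxin gene Ltb (1.21) and Swap70 (0.25). Cd80, a costimulatory ligand, and Gadd45b, a relative of Gadd45a, were lower in that test (-0.47 and -0.82). Ltb stood at 7.34, 7.39 and 8.74 in Art and 6.22, 6.11 and 6.14 in Rag_SPIC_noDOX, again without overlap (adjusted p = 0.0665 with 6 libraries).

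Genes of the NF-kB family and its feedback inhibitors were called in both directions. Over all genes, 5.14% were called with 6 libraries and 47.4% without Art replicate 3. Of 24 measured, Ebi3 was higher and Map3k8 lower with 6 libraries, and 9 were higher and 4 lower without Art replicate 3. Ebi3, a subunit shared by interleukins 27 and 35, stood at 4.75, 4.69 and 5.37 log2 CPM in Art and 3.17, 3.01 and 3.32 in Rag_SPIC_noDOX (1.77 ± 0.22). Map3k8, a kinase upstream of ERK, stood at 3.84, 3.97 and 3.56 in Art and 4.66, 4.51 and 4.65 in Rag_SPIC_noDOX (-0.81 ± 0.15). Neither gene's groups overlapped. Tnfaip3, the A20 feedback inhibitor, differed by 0.36 without Art replicate 3 and Nfkb2 by 0.29. The list median was 0.13 with all 6 libraries and 0.08 without Art replicate 3, against -0.03 and 0.00 for all genes.

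Genes of the p53 pathway that were called with 6 libraries were lower in Art. Of 26 measured, 0 were higher and 3 lower with 6 libraries, and 2 were higher and 15 lower without Art replicate 3. Mdm2, the ubiquitin ligase that degrades p53 and is itself a p53 target, stood at 8.22, 8.22 and 8.25 log2 CPM in Art and 8.87, 8.77 and 8.83 in Rag_SPIC_noDOX (-0.60 ± 0.09, adjusted p = 0.0252). The 3 Art libraries were nearly identical here, and all lay below the Rag_SPIC_noDOX libraries. Plk3, a stress-responsive polo-like kinase, was lower (-1.55 ± 0.26), as was Gtse1, a cell-cycle protein that restrains p53 (-0.73 ± 0.10). Cdkn1a, the p21 cell-cycle inhibitor, stood at 8.58, 8.62 and 8.97 in Art and 9.36, 9.28 and 9.26 in Rag_SPIC_noDOX. Pmaip1, the pro-apoptotic NOXA, stood at 6.50, 6.47 and 5.62 in Art and 7.22, 7.31 and 7.30 in Rag_SPIC_noDOX. Both had separate groups and adjusted p of 0.074 and 0.0683 with 6 libraries, and both passed without Art replicate 3 (-0.69 and -0.79). Btg2 and Plk2 were the 2 members higher in Art in that test. Plk2 rested on few reads, 39, 25 and 5 in Art and 17, 8 and 16 in Rag_SPIC_noDOX.

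**Figure D3:**
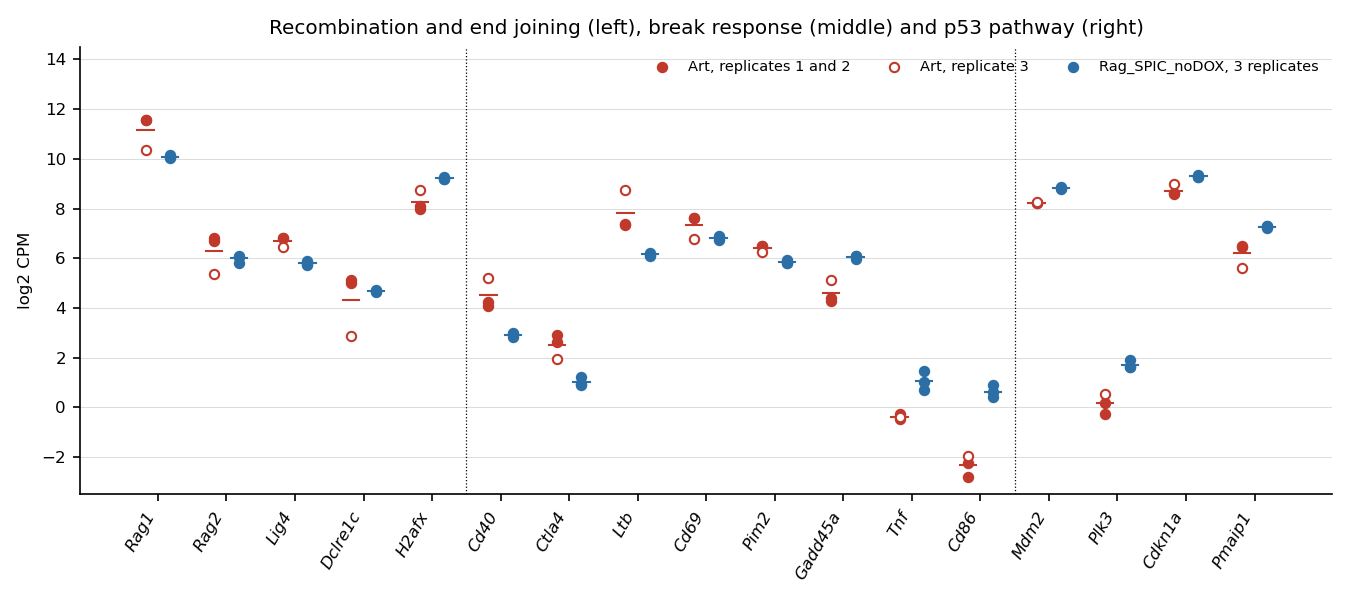
Levels (vertical axis, log2 CPM) by library for genes of V(D)J recombination and end joining, of the RAG-break response and of the p53 pathway; filled red points are Art replicates 1 and 2, open red points Art replicate 3, blue points Rag_SPIC_noDOX, and bars are group means of 3 libraries. Rag1, Lig4, Cd40, Ctla4, Ltb and Pim2 lie higher in every Art library, and H2afx, Gadd45a, Tnf, Cd86, Mdm2, Plk3, Cdkn1a and Pmaip1 lower; the open points of Rag2, Dclre1c and Cd69 lie below or among the blue ones.

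The SPI factors themselves did not pass the 6-library test. Spi1, which encodes PU.1, stood at 7.10, 6.92 and 7.73 log2 CPM in Art and 7.07, 7.17 and 6.98 in Rag_SPIC_noDOX, with overlapping groups. Its log2 fold change was 0.18 ± 0.22 with all 6 libraries and -0.06 ± 0.07 without Art replicate 3. Spib, the related factor, stood at 7.32, 7.27 and 7.30 in Art and 7.21, 7.07 and 7.12 in Rag_SPIC_noDOX. Its Art libraries all lay higher by a small step, 0.17 ± 0.06 without Art replicate 3 (adjusted p = 0.0294). Of all 18 ETS factors measured, Ets1 and Erg were higher and Etv5 lower in Art, and without Art replicate 3 the counts were 5 and 4. Erg, a factor active in early haematopoiesis, stood at 8.72, 8.63 and 9.12 in Art and 7.76, 7.78 and 7.69 in Rag_SPIC_noDOX (1.08 ± 0.15). Ets1 stood at 9.53, 9.54 and 9.21 in Art and 8.80, 8.83 and 8.75 in Rag_SPIC_noDOX (0.64 ± 0.13). Etv5, an ETS gene induced by ERK signalling, stood at 1.49, 2.13 and 2.02 in Art and 3.32, 3.12 and 3.13 in Rag_SPIC_noDOX (-1.32 ± 0.21).

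Of 24 genes known as targets of PU.1 or SPIB, 4 were higher and 1 lower in Art with 6 libraries, and 10 were higher and 6 lower without Art replicate 3. In the latter fit 23.2% of all genes were higher and 24.2% lower, so the 6 lower are near the share of all genes. The higher ones with 6 libraries included Plcg2, Tlr9 and Fcer2a. Plcg2, the phospholipase of B-cell receptor signalling, stood at 8.0, 7.99 and 8.42 log2 CPM in Art and 7.42, 7.29 and 7.30 in Rag_SPIC_noDOX (0.80 ± 0.15, adjusted p = 0.0372). Tlr9, the receptor for unmethylated DNA, was higher by 0.69 ± 0.14, and Fcer2a (CD23) by 1.74 ± 0.29 from at most 36 reads in a library. The member that was lower was Csf1r, the receptor of macrophage colony-stimulating factor, at 0.24, -0.06 and 0.71 in Art and 1.88, 2.01 and 2.04 in Rag_SPIC_noDOX (-1.68 ± 0.25). Blnk, the adaptor of the pre-B-cell receptor, stood at 9.79, 9.70 and 9.56 in Art and 9.99, 9.95 and 9.92 in Rag_SPIC_noDOX, without overlap but with a difference of only -0.21 without Art replicate 3 (adjusted p = 0.0135). The median of the list was 0.12 with all 6 libraries and 0.09 without Art replicate 3.

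Of 32 genes of the pre-B-cell receptor and its signalling, 3 were higher, Lck and Plcg2 among them, and 0 lower with 6 libraries, and 14 were higher and 3 lower without Art replicate 3. Lck, a SRC-family kinase best known from T cells, stood at 6.41, 6.32 and 6.36 log2 CPM in Art and 5.03, 4.95 and 5.07 in Rag_SPIC_noDOX (1.35 ± 0.10, adjusted p = 0.0103). Each group was tight and the groups lay far apart. Among the B-lineage transcription factors, 3 of 26 were higher and 0 lower with 6 libraries, and 7 were higher and 4 lower without Art replicate 3. Id3, an inhibitor of E proteins, was at 7.14, 7.07 and 7.91 in Art and 5.88, 5.96 and 5.96 in Rag_SPIC_noDOX. Bcl11a was higher by 0.52 ± 0.10 and Pou2f2, the octamer factor OCT2, by 0.64 ± 0.10. S1pr1, the sphingosine receptor that guides lymphocyte exit and a FOXO target, was the 1 called gene of 24 in the FOXO and quiescence list, at 7.67, 7.54 and 7.63 in Art and 6.95, 6.88 and 6.83 in Rag_SPIC_noDOX; without Art replicate 3 that list had 5 higher and 8 lower. Of the 20 IL-7 and STAT5 pathway genes 0 were called with 6 libraries, and 7 were higher and 4 lower without Art replicate 3. Over all genes, 23.2% were higher and 24.2% lower without Art replicate 3. Il7r stood at 10.22, 10.12 and 8.49 in Art and 10.42, 10.59 and 10.52 in Rag_SPIC_noDOX, so that its size, -0.90 with and -0.34 without Art replicate 3, rests on that library.

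All 3 MYC paralogs were called lower in Art. Myc stood at 3.87, 4.08 and 4.26 log2 CPM in Art and 5.77, 5.41 and 5.60 in Rag_SPIC_noDOX, 2.88-fold lower in Art (-1.53 ± 0.16, adjusted p = 0.0112). Mycn stood at 3.77, 3.78 and 3.84 in Art and 4.92, 4.77 and 4.89 in Rag_SPIC_noDOX (-1.06 ± 0.11), and Mycl at 1.76, 1.58 and 1.10 in Art and 2.54, 2.42 and 2.74 in Rag_SPIC_noDOX (-1.09 ± 0.22). No Art library reached any Rag_SPIC_noDOX library for these 3 genes. Ccnd2, the D-type cyclin downstream of cytokine receptors, stood at 4.14, 4.19 and 4.05 in Art and 5.54, 5.38 and 5.41 in Rag_SPIC_noDOX (-1.32 ± 0.11). Of 28 genes of the MYC network and G1 cyclins, 0 were higher and these 4 lower with 6 libraries, and 4 were higher and 16 lower without Art replicate 3. Cdkn2a, which encodes the ARF and INK4A inhibitors, ran the other way at 7.18, 7.10 and 9.08 in Art and 6.05, 5.94 and 5.90 in Rag_SPIC_noDOX. Its groups were apart, but Art replicate 3 lay above its partners, and the difference was 1.82 with that library (adjusted p = 0.114) and 1.18 ± 0.06 without it.

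All 44 mitosis genes measured had a lower mean in Art. With 6 libraries 17 were called lower and 0 higher, and without Art replicate 3 all 44 were called lower, with log2 fold changes between -1.23 and -0.39. The list median was -0.98 with all 6 libraries and -0.85 without Art replicate 3. Cdca3, a trigger of mitotic entry, stood at 5.75, 5.69 and 5.72 log2 CPM in Art and 6.94, 6.95 and 6.95 in Rag_SPIC_noDOX (-1.23 ± 0.09, adjusted p = 0.0103). The libraries of each group were almost identical here, Art replicate 3 included. Birc5 (survivin), Cdca8 (borealin) and Aurka, all of the chromosome segregation machinery, were lower too (-1.10 ± 0.11, -1.01 ± 0.10 and -0.95 ± 0.10). Ube2c, the ubiquitin-conjugating enzyme of the anaphase-promoting complex, stood at 6.45, 6.36 and 5.66 in Art and 7.39, 7.42 and 7.44 in Rag_SPIC_noDOX. Foxm1, the transcription factor of the G2 and mitosis programme, stood at 7.61, 7.54 and 7.5 in Art and 8.51, 8.34 and 8.42 in Rag_SPIC_noDOX. Mki67, the proliferation marker Ki-67, stood at 9.62, 9.59 and 7.45 in Art and 10.44, 10.52 and 10.47 in Rag_SPIC_noDOX. Art replicate 3 lay far below its partners for Mki67, and the size of the difference, -1.59 with and -0.88 without it, rests partly on that library. In bulk RNA, fewer cells in division and less RNA per dividing cell cannot be told apart.

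The mitosis genes also share promoter letters that played no part in choosing them. RefSeq promoter windows (GRCm38.p6, 250 bases before to 50 bases after a gene's start) were searched on both strands for TTTGAA, the core of the cell-cycle homology region, and for CCAAT, the NF-Y box. TTTGAA occurred in 30 of the 39 windows found for 37 of the mitosis genes (76.9%), against 12% of the windows of all genes tested and 17.9% of all windows in the table. Both motifs together occurred in 27 of 39 windows (69.2%), against 4.8% for all genes tested, 9.4% for the DNA replication genes and 11.1% for all genes called lower in Art. Of the 17 mitosis genes called with 6 libraries, 10 had a window with both. A match is a description of these letters and not a binding site. The windows of 4 of them are shown because these genes fell and carry both motifs. Capitals mark TTTGAA (or TTCAAA on the other strand) and CCAAT (or ATTGG on the other strand), and in Cdca8 the capitals TTTGAATTGG are an overlap of both motifs; CCAATTGG in Ube2c holds CCAAT on both strands.
Ube2c, chr2:164769679-164769978, plus strand: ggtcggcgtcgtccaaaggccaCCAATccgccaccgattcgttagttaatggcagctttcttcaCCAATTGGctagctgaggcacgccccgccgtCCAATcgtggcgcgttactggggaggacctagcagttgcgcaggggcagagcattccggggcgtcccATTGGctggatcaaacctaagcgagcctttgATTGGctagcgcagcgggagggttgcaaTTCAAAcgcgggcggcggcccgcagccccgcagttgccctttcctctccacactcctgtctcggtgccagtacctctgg
Cdca3, chr6:124829926-124830225, plus strand: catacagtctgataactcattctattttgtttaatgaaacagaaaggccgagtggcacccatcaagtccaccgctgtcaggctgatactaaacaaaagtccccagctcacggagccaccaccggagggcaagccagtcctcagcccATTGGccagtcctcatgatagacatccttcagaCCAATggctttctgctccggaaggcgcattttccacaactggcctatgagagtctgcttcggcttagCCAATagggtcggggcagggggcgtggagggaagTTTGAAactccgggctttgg
Cdca8, chr4:124936868-124937167, minus strand: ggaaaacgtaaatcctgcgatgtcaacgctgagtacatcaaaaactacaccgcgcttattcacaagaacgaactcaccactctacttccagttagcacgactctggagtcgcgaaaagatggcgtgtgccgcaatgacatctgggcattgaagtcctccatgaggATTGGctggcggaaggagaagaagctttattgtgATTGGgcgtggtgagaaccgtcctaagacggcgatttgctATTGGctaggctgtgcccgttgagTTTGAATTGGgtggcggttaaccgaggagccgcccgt
Aurka, chr2:172370521-172370820, minus strand: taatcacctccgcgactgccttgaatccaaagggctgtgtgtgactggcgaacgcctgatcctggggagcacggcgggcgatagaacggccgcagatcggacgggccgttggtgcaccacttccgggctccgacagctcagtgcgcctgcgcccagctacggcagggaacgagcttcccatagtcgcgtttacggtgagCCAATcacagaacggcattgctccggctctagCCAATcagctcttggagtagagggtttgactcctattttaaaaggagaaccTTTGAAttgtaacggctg
With the start counted as 0, the first base of TTTGAA or its complement lay at position -29 in Ube2c, 30 in Cdca3, 13 in Cdca8 and 32 in Aurka. GAGGAA, the core bound by PU.1, occurred in 26.7% of the windows of all genes tested and in 28.3% of all windows searched. It occurred in 16 of 33 windows of the pre-B-cell receptor genes (48.5%) and 8 of 22 of the PU.1 and SPIB targets (36.4%). For the MAP kinase feedback and immediate-early genes it was 10 of 27 windows (37%), and some genes had several windows. The share was 28.2% for mitosis genes, 27.8% for glycolysis and hypoxia genes and 18.8% for DNA replication genes. For all genes called higher in Art it was 27.3%, and for all called lower 24.0%.

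Of 36 DNA replication genes measured, 7 were lower and 0 higher with 6 libraries, and 30 were lower and 2 higher without Art replicate 3 (medians -0.54 and -0.56). Mcm10, which loads DNA polymerase alpha, stood at 4.82, 4.98 and 4.67 log2 CPM in Art and 5.86, 5.73 and 5.74 in Rag_SPIC_noDOX (-0.96 ± 0.13). Ticrr, which helps fire origins, stood at 5.69, 5.64 and 5.0 in Art and 6.62, 6.59 and 6.64 in Rag_SPIC_noDOX (-1.17 ± 0.20). The others were the helicase subunits Mcm4 and Mcm6, Gins1, Pole and the ligase Lig1, with log2 fold changes of -0.90 to -0.57. Tk1 and Ung were the exceptions that were higher without Art replicate 3. Of the homologous recombination and fork repair genes, 7 of 26 were lower and 0 higher with 6 libraries, and 22 were lower and 2 higher without Art replicate 3. Exo1, a nuclease that resects DNA ends, stood at 3.54, 3.57 and 3.33 in Art and 4.59, 4.51 and 4.55 in Rag_SPIC_noDOX (-1.07 ± 0.13). Clspn, Fancd2, Fanci, Timeless and Tipin had log2 fold changes from -0.99 to -0.61, and Fancm and Atr were the 2 that were higher without Art replicate 3.

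Of 26 immediate-early genes and feedback inhibitors of the MAP kinase pathway, 6 were lower and 0 higher with 6 libraries, and 15 were lower and 2 (Dusp2 and Nr4a1) higher without Art replicate 3. Dusp1, a phosphatase that switches off MAP kinases, stood at 3.39, 3.26 and 3.23 log2 CPM in Art and 5.15, 4.83 and 4.95 in Rag_SPIC_noDOX (-1.69 ± 0.14, adjusted p = 0.0103). Dusp4, its relative, stood at 2.45, 2.34 and 2.29 in Art and 4.20, 3.73 and 3.67 in Rag_SPIC_noDOX (-1.50 ± 0.18). Egr1, Fos and Atf3, transcription factors induced within minutes of a stimulus, were lower as well (-1.0 ± 0.18, -1.43 ± 0.29 and -1.23 ± 0.14). The groups did not overlap for any of these 5 genes.

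Calls in the metabolic lists varied, against 5.14% of all genes called with 6 libraries. Of 25 glycolysis and hypoxia genes, 5 were lower and 0 higher with 6 libraries, and 13 were lower and 3 higher without Art replicate 3. Ddit4, a hypoxia-induced inhibitor of mTORC1, stood at 7.49, 7.51 and 8.13 log2 CPM in Art and 8.91, 8.74 and 8.83 in Rag_SPIC_noDOX (-1.11 ± 0.20). Pgk1, Gapdh, Eno1 and Ankrd37 had log2 fold changes from -1.29 to -0.71; the first 3 have near-identical pseudogene copies, so their level is uncertain. Txnip and Arrdc3, alpha-arrestins that curb glucose uptake and receptor signalling, were the 2 called of 9, at 7.72, 7.74 and 7.62 in Art and 8.93, 8.77 and 8.82 in Rag_SPIC_noDOX for Txnip; without Art replicate 3, 3 of the 9 were higher and 3 lower. Scd1, a stearoyl-CoA desaturase, was higher by 0.97 ± 0.10 and its paralog Scd2 was lower (-0.63 ± 0.11). Insig1, which holds back sterol synthesis, was higher by 0.72 ± 0.12. Of the 26 sterol and fatty-acid genes these 3 were called, and 11 were higher and 2 lower without Art replicate 3. Trib3 and Psat1, both ATF4 targets, moved apart, by 1.16 ± 0.13 and -0.87 ± 0.11, in a list of 28 amino-acid stress and tRNA synthetase genes with no other call. Of these, 3 were higher and 16 lower without Art replicate 3.

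Among surface and immune genes, the class II genes H2-Aa and H2-Eb1 were the 2 called of 19 antigen presentation genes, both lower in Art. H2-Aa stood at 2.40, 2.59 and 2.76 log2 CPM in Art and 4.30, 4.5 and 4.40 in Rag_SPIC_noDOX (-1.82 ± 0.15, adjusted p = 0.0103). H2-Eb1 was lower by the same test (-1.18 ± 0.12), and H2-Ab1 was lower without Art replicate 3 (-1.30 ± 0.07). H2-Ab1 did not pass with 6 libraries, where Art replicate 3 at 6.43 lay above all Rag_SPIC_noDOX libraries. Of the 19, 3 were higher and 4 lower without Art replicate 3. Itgam, the integrin alpha M chain, stood at 9.79, 9.80 and 9.37 in Art and 8.12, 8.03 and 8.09 in Rag_SPIC_noDOX and was called with S1pr1 among 21 integrin and adhesion genes, of which 10 were higher and 3 lower without Art replicate 3. Oas2 was the 1 called of 25 interferon-response genes (1.54 ± 0.25, from 12 to 52 reads in Art and 9 to 15 in Rag_SPIC_noDOX); without Art replicate 3, 14 were higher and 4 lower. The histone genes called were linker histones and lower in Art: Hist1h1c stood at 5.96, 6.08 and 6.15 in Art and 6.79, 6.84 and 6.87 in Rag_SPIC_noDOX (-0.77 ± 0.10), and Hist1h1b and Hist1h1d were called lower from at most 55 reads in a library. Of the 13 histone genes 11 were lower and 0 higher without Art replicate 3. Histone genes are a multigene family, and their counts are uncertain where reads could map to several copies.

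Carmil2 and Hip1r, both linked to the actin cortex, were higher, and Stmn1, which destabilises microtubules, was lower among 29 actin and cytoskeleton genes. The balance was the other way without Art replicate 3, with 6 higher and 17 lower (list medians -0.04 with all 6 libraries and -0.30 without). Mitf and Dpp7 were the 2 called, both higher, of 28 lysosome and autophagy genes, and 12 were higher and 5 lower without Art replicate 3. The BCL2 family (13 genes), ribosome biogenesis (28), the respiratory chain (28) and splicing factors (30) had 0 calls with 6 libraries, at 594 calls over all genes (5.14%), and 2505 genes at an unadjusted p below 0.05. Without Art replicate 3 the BCL2 family had 3 higher and 5 lower, ribosome biogenesis 3 and 10, and splicing factors 6 and 6. The respiratory chain illustrates how Art replicate 3 acts on a list. Its genes lay a median of 0.85 log2 units higher in Art replicate 3 than in its partners, and the list median was 0.10 with and -0.20 without that library. Without it 16 of the 28 were called lower and 1 higher. Ribosomal protein genes had 2 of 34 called lower with 6 libraries, Rpl3 and Rpl4, and 24 without Art replicate 3. Rplp1 stood at 7.98, 8.24 and 12.23 in Art and 8.77, 8.58 and 8.61 in Rag_SPIC_noDOX, so that 1 library turned the sign. Ribosomal protein genes have many pseudogenes, and their levels are uncertain.

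**Figure D4:**
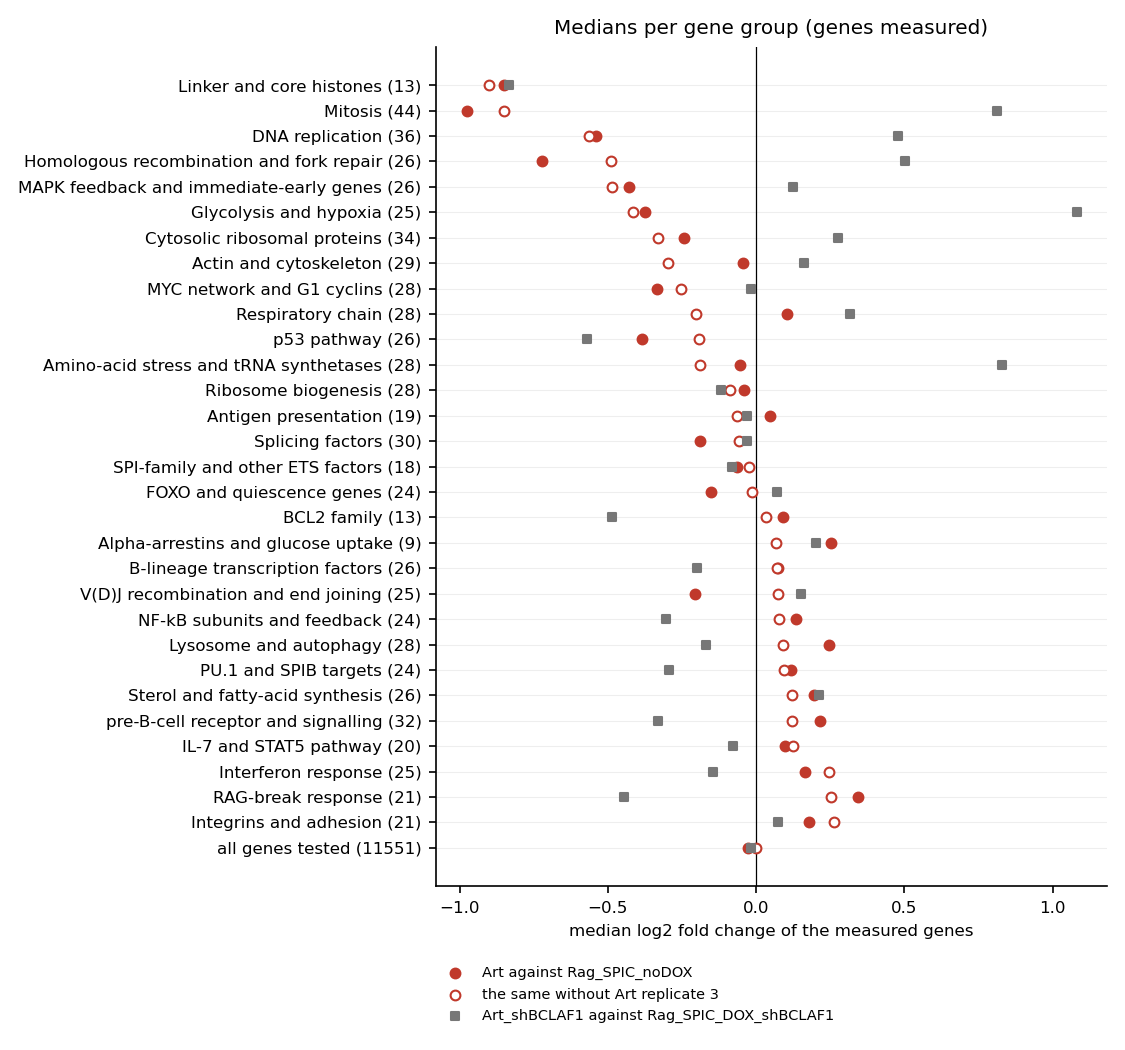
Median log2 fold change (horizontal axis) of each gene group, with the number of genes measured in parentheses, for Art against Rag_SPIC_noDOX with all 6 libraries (red), without Art replicate 3 (open), and for Art_shBCLAF1 against Rag_SPIC_DOX_shBCLAF1 (grey squares). The mitosis genes stand at -0.98 and -0.85 in the first comparison and at 0.81 in the second, and all genes tested lie near 0 in each.

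The same pair of lines was compared a second time in the libraries labelled shBCLAF1, which share no library with the first comparison. Here the labels give the hairpin on both sides and doxycycline and the SPIC construct on the Rag side only. The labelled knockdown was not visible in the transcript: Bclaf1 stood at 8.29, 8.35 and 8.32 log2 CPM in Art_shBCLAF1 against 7.81, 7.75 and 6.41 in Art, and at 7.99, 8.05 and 8.10 in Rag_SPIC_DOX_shBCLAF1 against 7.63, 7.70 and 7.77 in Rag_SPIC_noDOX. Directions below are therefore those of libraries carrying the label, not of an observed loss of Bclaf1. On the Rag side the groups set side by side for Bclaf1 differ by doxycycline as well as by the hairpin, so they do not isolate the hairpin. Spic stood at 4.47, 4.34 and 4.80 in Art_shBCLAF1 and at 7.5, 7.43 and 7.44 in Rag_SPIC_DOX_shBCLAF1. In this comparison 3331 genes (28.8%) were higher and 3565 (30.9%) lower in Art_shBCLAF1, 59.7% of the genes together.

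The line difference was largely not the same in the second set. Of the 298 genes higher in Art, 33 were also higher in Art_shBCLAF1 (11.1% of the first list and 0.99% of the second), 176 were lower and 89 were not called. Of the 296 genes lower in Art, 76 were also lower (25.7% and 2.13%), 171 were higher and 49 were not called. The difference between the comparisons was itself tested over the 12 libraries, and 3610 genes (31.3%) passed, or 7049 (61%) without Art replicate 3. Genes lower in both sets included Sdk1 (-2.13 and -2.25), Cacna1h (-2.44 and -2.32), Cav2 (-2.23 and -2.13), Lhfpl4 (-2.37 and -2.83) and Dusp1 (-1.69 and -1.30). Sdk1 stood at 1.82, 2.19 and 1.75 in Art_shBCLAF1 and 4.07, 4.19 and 4.24 in Rag_SPIC_DOX_shBCLAF1. Pcdh17 shared no such persistence: it differed by -0.37 (adjusted p = 0.267) in the second set, and the difference between the comparisons was 3.93 ± 0.42 (adjusted p = 7.22e-05).

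The mitosis genes pointed the opposite way. Of the 44, 43 were higher and 0 lower in Art_shBCLAF1 than in Rag_SPIC_DOX_shBCLAF1, with a median of 0.81, and for 42 of them the difference between the comparisons passed the test. Cdca3 stood at 7.38, 7.22 and 7.26 log2 CPM in Art_shBCLAF1 and 6.25, 6.35 and 6.41 in Rag_SPIC_DOX_shBCLAF1. Its difference was 0.95 here against -1.23 in the hairpin-free libraries (difference of the differences -2.18, adjusted p = 5.8e-07). Replication genes were higher in 33 of 36 cases and lower in 0, and fork repair genes in 20 of 26 and 0. Glycolysis and hypoxia genes were higher in 23 of 25 and lower in 1. The difference between the comparisons passed, in the direction of a lower value in the hairpin-free libraries, for 25 of the replication genes, 19 of the fork repair genes and 20 of the glycolysis and hypoxia genes. Higher in Art_shBCLAF1 were also amino-acid stress genes and tRNA synthetases, 26 of 28 with 0 lower. Psat1, of serine synthesis, stood at 9.01, 8.66 and 8.88 in Art_shBCLAF1 and 7.20, 7.19 and 7.23 in Rag_SPIC_DOX_shBCLAF1, a difference of 1.64 against -0.87 in the hairpin-free libraries.

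Of the 32 pre-B-cell receptor and signalling genes 6 were higher and 19 lower in Art_shBCLAF1, and of the 26 B-lineage factors 4 were higher and 16 lower. For 16 of the 32 receptor and signalling genes the difference between the comparisons passed, each time with the higher value in the hairpin-free libraries. Of the 26 B-lineage factors it passed for 9 in that direction and for 4 in the other, and 3 of the 26 had been called in the first comparison. Lck stood at 2.52, 2.37 and 2.62 log2 CPM in Art_shBCLAF1 and 4.40, 4.37 and 4.34 in Rag_SPIC_DOX_shBCLAF1. It was thus lower in every Art_shBCLAF1 library, the reverse of the hairpin-free comparison (difference of the differences 3.22, adjusted p = 1.77e-07). Lig4 stood at 4.59, 4.80 and 4.65 in Art_shBCLAF1 and 6.02, 5.93 and 5.92 in Rag_SPIC_DOX_shBCLAF1. Cd40 stood at 0.36, 1.25 and 0.54 in Art_shBCLAF1 and 2.18, 2.38 and 2.28 in Rag_SPIC_DOX_shBCLAF1. Of the p53 pathway genes 2 of 26 were higher and 20 lower in Art_shBCLAF1; Cdkn1a differed by -0.61 and Pmaip1 by -0.95. Mdm2, Gtse1 and Plk3 were lower in both sets, although for Mdm2 and Plk3 the size differed between them (adjusted p = 0.0387 and 0.0148). NF-kB genes were higher in 1 and lower in 14 of 24, with Tnfaip3 at 3.25, 3.79 and 3.28 in Art_shBCLAF1 and 5.19, 5.01 and 4.94 in Rag_SPIC_DOX_shBCLAF1. By their labels, the second set departs from the first by the hairpin alone on the Art side, and by the hairpin, doxycycline and SPIC induction on the Rag side. The Art side nevertheless also differed in Spic, which averaged 4.54 log2 CPM in Art_shBCLAF1 against 0.44 in Art. The labels give the SPIC construct and doxycycline on the Rag side only, and the source of this rise was not tested. Pcdh17 averaged 1.07 log2 CPM in Art_shBCLAF1, against 5.71 in Art. On the Rag side it averaged 1.44 in Rag_SPIC_DOX_shBCLAF1 and 2.15 in Rag_SPIC_DOX (doxycycline and no hairpin), against 2.15 in Rag_SPIC_noDOX.

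**Figure D5:**
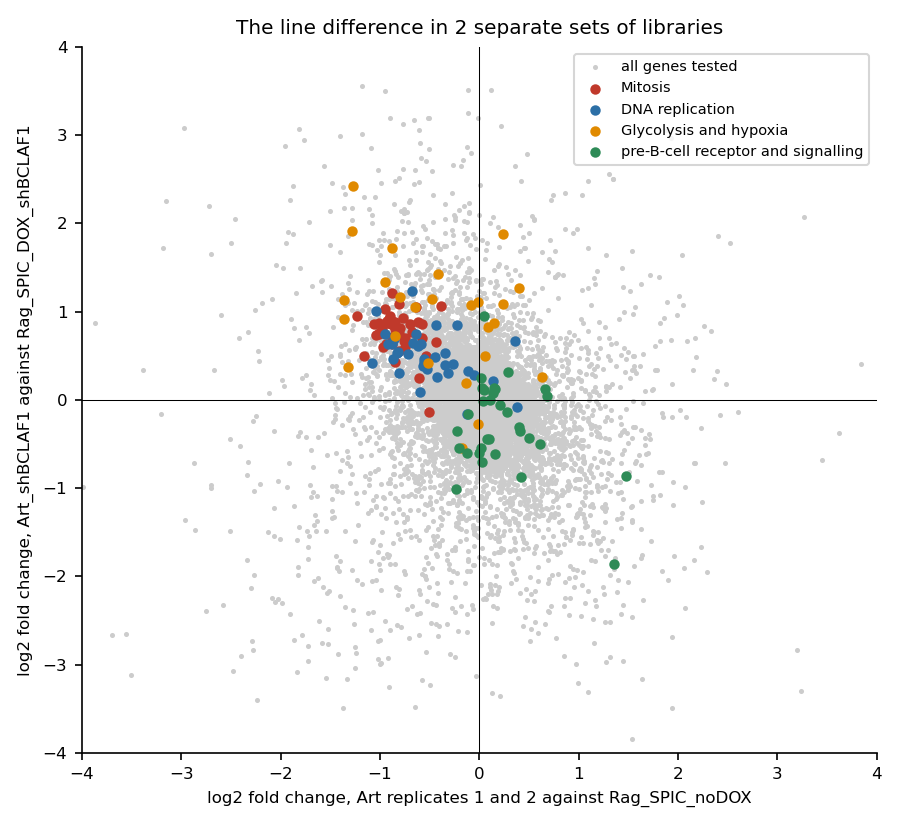
Log2 fold change of each gene (grey, 11551 genes, of which 7 lie outside the axes) in Art replicates 1 and 2 against Rag_SPIC_noDOX (horizontal axis) and in Art_shBCLAF1 against Rag_SPIC_DOX_shBCLAF1 (vertical axis), which share no library. Mitosis genes (red) and DNA replication genes (blue) lie mostly in the upper left, lower in Art and higher in Art_shBCLAF1, as do most glycolysis and hypoxia genes (orange).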

How the data were processed

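RNA was sequenced as paired ends from TruSeq libraries on a HiSeq 3000, per the labels' protocols. The submitters' processing notes name limma, edgeR, Subread and featureCounts 1.4.5, give them no roles, and name build mm9. The deposited values are log2 CPM with 0.5 reads added, in 4 tables that list only protein-coding genes past the authors' own threshold. Whole reads were recovered for 100% of the values under 1000 reads (tolerance 0.05 reads). The tables were merged to 11551 genes, with 152 duplicate entries removed, and the authors' fold changes and p-values were not used. As the tables hold only genes called in some comparison, shares of called genes are higher than over all genes. The tables include the submitters' comparison of Rag_SPIC_noDOX with Art, so genes were chosen partly on libraries tested here. Adjusted p-values may therefore be too small.

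Groups were compared in R 4.3.3 with limma 3.58.1 (mean-variance trend, 3 against 3 libraries, Benjamini-Hochberg over 11551 genes, adjusted p below 0.05); the difference between the 2 line comparisons was the interaction term over 12 libraries. The scripts were tested on simulated data. The group comparison and the gene lists were chosen with earlier results of these data known. Named genes are the 12 higher and 12 lower with the widest gap between nearest libraries among those with a mean of at least 1 log2 CPM and called with and without Art replicate 3 (274 higher and 255 lower were eligible), the genes of the labels, and called or defining list members. Alternatives were leaving out each library, array weights, a replicate block, median centring, a minimum mean, 2 reads added, 1 fit over 15 libraries, GC correction and voom weights. GC content came from GENCODE transcripts of GRCm38 for 99.7% of genes. A few genes are not reported here.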

Additional observations from a re-analysis of the deposited data

Results flagged for a closer look

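For 17 of the 24 genes with the widest gaps and the 5 genes of the labels, the difference between the Artemis-deficient and Rag-deficient lines itself differed between the hairpin-free and the shBCLAF1-labelled libraries (limma interaction term, Benjamini-Hochberg adjusted p below 0.05). Over all genes 31.3% passed. The 24 genes were chosen for their gap in Art and Rag_SPIC_noDOX libraries that also enter this test, so their choice favours passing it. The values that follow are the log2 fold change of Art over Rag_SPIC_noDOX minus that of Art_shBCLAF1 over Rag_SPIC_DOX_shBCLAF1. It was 3.93 for Pcdh17, 2.88 for Kcns1, 2.38 for Prss12, 3.97 for Arap3, 4.25 for Arrdc5, 3.83 for Lrtm2, 1.68 for Wnt10a, 1.36 for Fut4 and 2.0 for Pacsin1. Pcdh17, Kcns1 and Pacsin1 averaged 1.07, -0.07 and 2.10 log2 CPM in Art_shBCLAF1, against 1.44, 0.10 and 2.25 in Rag_SPIC_DOX_shBCLAF1. Arap3, Arrdc5 and Lrtm2 were lower in Art_shBCLAF1 (-1.82, -1.91 and -1.77), although Arrdc5 rested on 0, 4 and 3 reads there. Jchain was higher in both sets, by 2.04 and by 3.06, which gives -1.02. Ryr3 and Vldlr were lower in both, and the value was -1.88 for Ryr3 (adjusted p = 0.0493) and -0.89 for Vldlr (adjusted p = 0.0122). Rgs11 (-3.21) and Mpeg1 (-3.89) were lower in Art and higher in Art_shBCLAF1. Ccl22 gave -5.84, but its value depends on the reads added before the logarithm, since Ccl22 had 1, 4 and 5 reads in Art_shBCLAF1 and 0 in every Rag_SPIC_DOX_shBCLAF1 library. Among the genes of the labels the value was 1.62 for Rag1 and 2.54 for Spic, the gene of the doxycycline-inducible construct. Without Art replicate 3 all 17 passed again. Over all 144 genes named in the text the difference passed for 100, and for 122 without Art replicate 3. The shares of all genes were 31.3% and 61%. Most of the 144 were named because they were called in the first comparison, which favours passing here too.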

How the results depend on the processing

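The 594 genes called in Art against Rag_SPIC_noDOX ranged from 0 to 5473 when 1 library was left out. Array weights, which gave Art replicate 3 a weight of 0.0248, raised the count to 6547, GC correction to 1428, GC correction without Art replicate 3 to 6012 and a fit over 15 libraries to 1957. Whether the replicate numbers pair the libraries could not be told. Deviations of same-numbered libraries correlated at -0.23, 0.20 and -0.07, and not every library correlated best with its own number. Art replicate 3 dominates the deviations within Art, however, so these correlations cannot decide it. With a replicate block the count was 0 (1902 at an unadjusted p below 0.05), and with the replicate block and GC correction together 315. Counts from 522 to 701 came from median centring, a mean of at least 1 log2 CPM, 2 reads added and voom weights. For the shBCLAF1-labelled libraries 6896 ranged from 5819 to 7598, and for the difference between the comparisons 3610 ranged from 2782 to 7049, with 8123 under array weights. Signs turned for 16 of the 144 named genes, none of them called with 6 libraries. With 1 library left out, Dclre1c ranged from -0.75 to 0.37, Bclaf1 from -0.62 to 0.080, Rplp1 from -0.55 to 1.58, Spi1 from -0.057 to 0.35, Atr from -0.33 to 0.36, Btg2 from -0.38 to 0.25, Irf4 from -0.15 to 0.026, Prdm1 from -0.23 to 0.30, Prkdc from -0.36 to 0.29 and Sdc1 from -0.012 to 0.18, with the turned sign in each case without Art replicate 3. Atm ranged from -0.20 to 0.44, Fancm from -0.049 to 0.33, Gata3 from -0.51 to 0.31, Xbp1 from -0.085 to 0.31 and Gadd45b from -0.82 to 0.010, with the sign turned without another library. Array weights gave 0.35 for Dclre1c, 0.035 for Bclaf1, -0.51 for Rplp1, 0.35 for Atr, 0.24 for Btg2, 0.034 for Irf4, 0.32 for Prdm1 and 0.30 for Prkdc. GC correction without Art replicate 3 gave 0.35, 0.035, -0.55, 0.32, 0.26, 0.053, 0.30 and 0.27 for the same genes in that order, -0.059 for Spi1 and -0.0125 for Sdc1. GC correction gave -0.022 for Spi1, -0.065 for Spib, 0.235 for Atr, 0.010 for Prdm1, 0.10 for Prkdc and -0.086 for Sdc1, with and without the replicate block, and median centring gave 0.0046 for Prdm1. Apart from the 0.0248 weight, the causes were not tested. Of the 104 named genes called with 6 libraries, 0 were called with the replicate block or without Art replicate 1 or 2 or Rag_SPIC_noDOX replicate 1 or 3, and 1 without Rag_SPIC_noDOX replicate 2. With the replicate block and GC correction 67 were called, with a fit over 15 libraries 92, with median centring or GC correction 96, and with a minimum mean 95 of the 96 tested. All 104 were called without Art replicate 3 (with or without GC correction), with array weights, with 2 reads added and with voom weights. Voom weights and GC correction without Art replicate 3 were chosen after seeing the data. The planned edgeR test was not run; voom weights on the recovered reads were used in its place. With 6.37 M recovered reads (mega reads), Art replicate 3 limits what can be detected for genes of few reads.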
